A study of Schmidtea mediterranea with 18 samples.

Results

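The comparison described here set days 4 to 6 after amputation against days 1 to 3 in planarians fed double-stranded RNA against apc, and followed day by day the transcripts that changed. Its members are the 6 APC RNAi libraries, 3 a side, of the 18 libraries in the series, chosen by the treatment and day in their labels. All animals were Schmidtea mediterranea of the asexual clonal strain CIW4, fed RNAi food 3 times. They are described as starved for 1 week before collection and amputated 3 days after the last feed, which cannot both hold on every day. With amputation at a fixed time after feeding, the time since the last feed grew with the day and cannot be told apart from it. The other libraries, used here for comparison only, came from animals given control RNAi (columns headed GFP) or Bcat RNAi (against beta-catenin-1), with 6 libraries each at the same 6 days. PolyA RNA was taken from regenerating trunk fragments, although the treatment protocol speaks of tail fragments. Before sequencing, the RNA of 3 biological replicates was combined, so a library stands for 1 pool of 1 day. No p-value below measures spread between animals. Late against early, p-values measure spread between the days of a side, and a steady change within days 1 to 3 or within days 4 to 6 adds to it. For slopes and the quadratic term they measure the scatter of days about the fitted line or curve. In fits with day as a block, shifts shared by both treatments on a day are taken out.

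Planarians replace lost tissue from a population of dividing stem cells, and the fragment reorganizes its body axis while it regrows. APC is part of the complex that marks beta-catenin for breakdown, and beta-catenin carries the canonical Wnt signal that sets posterior identity along the planarian body axis. Loss of apc is known to let tails form where heads would regrow, and loss of beta-catenin-1 to let heads form where tails would. The files list transcripts by SmedASXL identifier with no gene name, so the knockdown of apc, the marker genes of the tissue and the pathway lists could not be read, and transcripts are described by their courses. These are bulk libraries, in which fewer cells of a type and less RNA per cell cannot be told apart.

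Aligned reads in the APC RNAi libraries ranged from 41549185 to 55885884, and 29638 of 82955 transcripts had enough reads to be tested. No library measure separated the late from the early side: the share of reads in transcripts below 1 CPM (the counts-per-million scale) was 0.787% ± 0.128 early and 0.849% ± 0.189 late (SD, n = 3, exact two-sided permutation test, p = 0.7, smallest possible p = 0.1). The share of the 100 most abundant transcripts, the unaligned share and the number of transcripts detected at an equal depth gave p = 0.7, 0.4 and 0.9 in the same exact test, and all 4 adjusted p-values were 0.9. A p that misses the threshold does not show that the sides were alike.

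Of the 6 libraries, those of days 1, 2 and 5 stood apart in part of their transcripts. Transcripts were included here by a mean of at least 2 CPM over the 6 APC RNAi libraries, for all treatments. A transcript low in APC RNAi could not enter, however high in control or Bcat RNAi, while 1 high APC RNAi day could suffice. At day 1, 7 of these transcripts lay more than 2-fold above all 17 other libraries. Together they took 5.18% of the reads at day 1 against 0.142% to 0.243% on the later days. SmedASXL_012104 carried most of this, with 57477 CPM at day 1, 1534 CPM at day 2 and at most 2775 CPM from day 3 on, while its highest level in control RNAi was 4613 CPM. At days 1 and 2, 10 transcripts lay more than 2-fold outside all 16 other libraries, 9 below them and 1 above. One of the 9 was SmedASXL_077671, at 2.14 and 1.91 CPM on days 1 and 2, 23.9 to 34.9 CPM on days 3 to 6, and 21.5 to 28.9 CPM in the 12 libraries of the other treatments. At day 5 the log2 levels of 14588 transcripts of at least 2 CPM deviated from the mean of days 4 and 6 with an SD of 0.27, against 0.13 to 0.18 on the other interior days of any treatment. There 54 transcripts lay at least 2-fold below that mean and 2 above it, and SmedASXL_078927 took 13.7% of the reads against 10.1% to 10.8% on the other APC RNAi days. What sets these libraries apart was not tested. Most counts of calls, and the overlaps of slopes with other treatments, are given with and without them. The shares by day of the largest step or the extreme level, and the group medians, are given only with them. SmedASXL_012104, SmedASXL_077671 and SmedASXL_078927 were chosen after their values were seen.

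**Figure D1:**
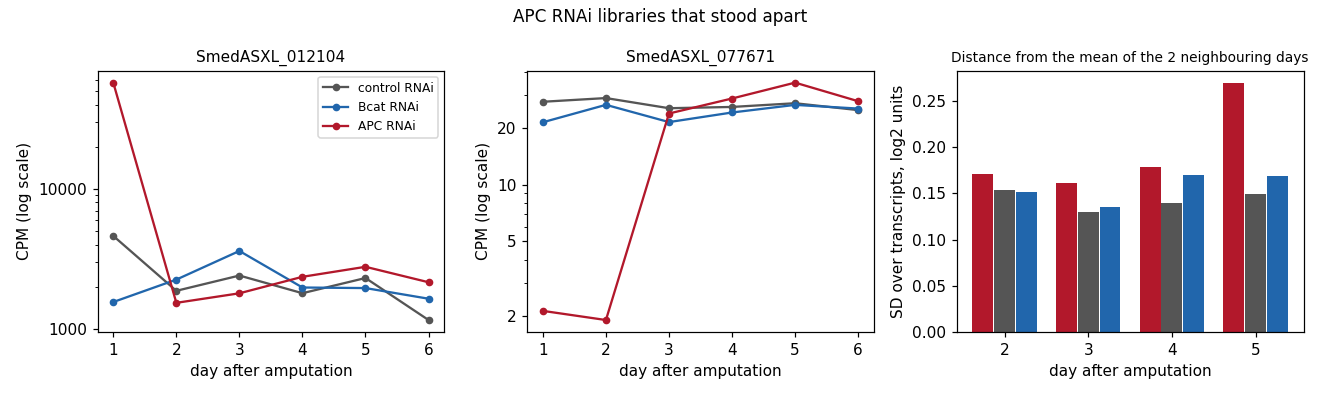
Left and middle, scaled CPM (log axis) of SmedASXL_012104 and SmedASXL_077671 by day in 1 library per treatment and day. Right, the SD over 14588 transcripts of the log2 distance between a day and the mean of its neighbouring days, one bar per treatment and interior day. SmedASXL_012104 is highest at APC RNAi day 1, SmedASXL_077671 is lowest at APC RNAi days 1 and 2, and the APC RNAi day 5 bar is the tallest at 0.27.

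Late against early, 45 transcripts were higher on days 4 to 6, or 0.152% of those tested, and 26 were lower, or 0.0877% (edgeR quasi-likelihood test, adjusted p under 0.05). The higher ones rose by a median of 0.82 on the log2 scale (0.48 to 1.51), and 7 of them at least 2-fold. For the 26 that fell the median log2 change was -1.03 (-1.83 to -0.54), with 14 of them at least 2-fold lower. The median over all transcripts tested was 0.01. In all 45 the 3 late libraries lay above the 3 early ones, as in 9.23% of all transcripts tested, and in all 26 they lay below, as in 5.74%. The counts moved with the days used: 33 transcripts were called without day 1, 11 without day 2, 309 without day 3, 177 without day 4 and 20 without day 5. With only transcripts of at least 1 CPM in 3 libraries tested, edgeR called 0 at adjusted p under 0.05, with 2608 at an unadjusted p under 0.05, while DESeq2 on all transcripts called 88, 64 of them among the 71.

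SmedASXL_068932 had the largest rise late against early among the transcripts eligible to be named. Its levels from day 1 to day 6 were 1.5, 1.48, 2.86, 4.8, 6.25 and 5.97 CPM. The first 2 days were lowest, day 3 lay between, and the late days did not overlap the early ones. The early mean was 1.95 CPM ± 0.793 and the late mean 5.67 CPM ± 0.767 (SD, n = 3), a log2 change of 1.51 (SE 0.21, adjusted p = 0.00695, edgeR). Under control RNAi the same transcript started higher, at 2.69 CPM on day 1, and reached 4.41 CPM on day 6. Under Bcat RNAi it stood at 2.46 CPM on day 1 and 4.59 CPM on day 6. Its rise in APC RNAi was larger than that in control by a log2 difference of 1.03 with an adjusted p of 0.877 (edgeR), and with day as a block by 1.06 with an adjusted p of 0.00768. Over the 6 days, 8 of the other transcripts of at least 2 CPM had a course that correlated with that of SmedASXL_068932 at Pearson's r above 0.99, the highest being 0.996, a description over 6 points that share their libraries.

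SmedASXL_010173 was the second riser, with 1.62, 1.78, 2.54, 3.82, 6.62 and 6.33 CPM over days 1 to 6 and a log2 change of 1.48 (SE 0.21, adjusted p = 0.00695, edgeR). The rise was slow to day 4 and steepest from day 4 to day 5. Control RNAi had more of it on every day (2.97 CPM on the first and 12.9 CPM on the last), and there too it rose late against early, by 1.41 on the log2 scale (adjusted p = 0.00928, edgeR fit of the control libraries). Its adjusted p in APC RNAi was 0.0533 without day 5 and 0.0672 without day 2, and that of SmedASXL_068932 was 0.0593 without day 2.

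Among the transcripts that fell, SmedASXL_009700 changed most. Its levels were 165.5, 110.4, 73.3, 38.9, 33.8 and 26.7 CPM from day 1 to day 6, lower on each day than on the day before. The early mean of 116.4 CPM ± 46.4 became a late mean of 33.1 CPM ± 6.13 (SD, n = 3), and the log2 change was -1.83 (SE 0.22, adjusted p = 0.00326, edgeR). In Bcat RNAi the same transcript began at 207.5 CPM and ended at 25.8 CPM, and in control RNAi it began at 90.4 and ended at 14.8 CPM. Its late against early change was called in neither, with adjusted p = 0.115 in Bcat RNAi and 0.0507 in control RNAi (edgeR). Its slope over days was called in both, with adjusted p = 0.000272 and 0.00172 (edgeR).

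SmedASXL_006360 also fell, from 57.9, 61.6 and 28.1 CPM on days 1 to 3 to 16.6, 8.23 and 21.1 CPM on days 4 to 6. Its log2 change was -1.69 (SE 0.28, adjusted p = 0.0192, edgeR), with an adjusted p of 0.105 without day 2 and 0.0677 without day 5. The day 6 level was above those of days 4 and 5. For all 4 transcripts named here the call was lost when only transcripts of at least 1 CPM in 3 libraries were tested. With all 18 libraries in the fit it was lost for SmedASXL_006360, SmedASXL_009700 and SmedASXL_010173 (adjusted p = 0.318, 0.102 and 0.124, edgeR). Of 14 alternatives, the call of SmedASXL_006360 was lost in 7, that of SmedASXL_010173 in 4, and those of SmedASXL_009700 and SmedASXL_068932 in 2 each.

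**Figure D2:**
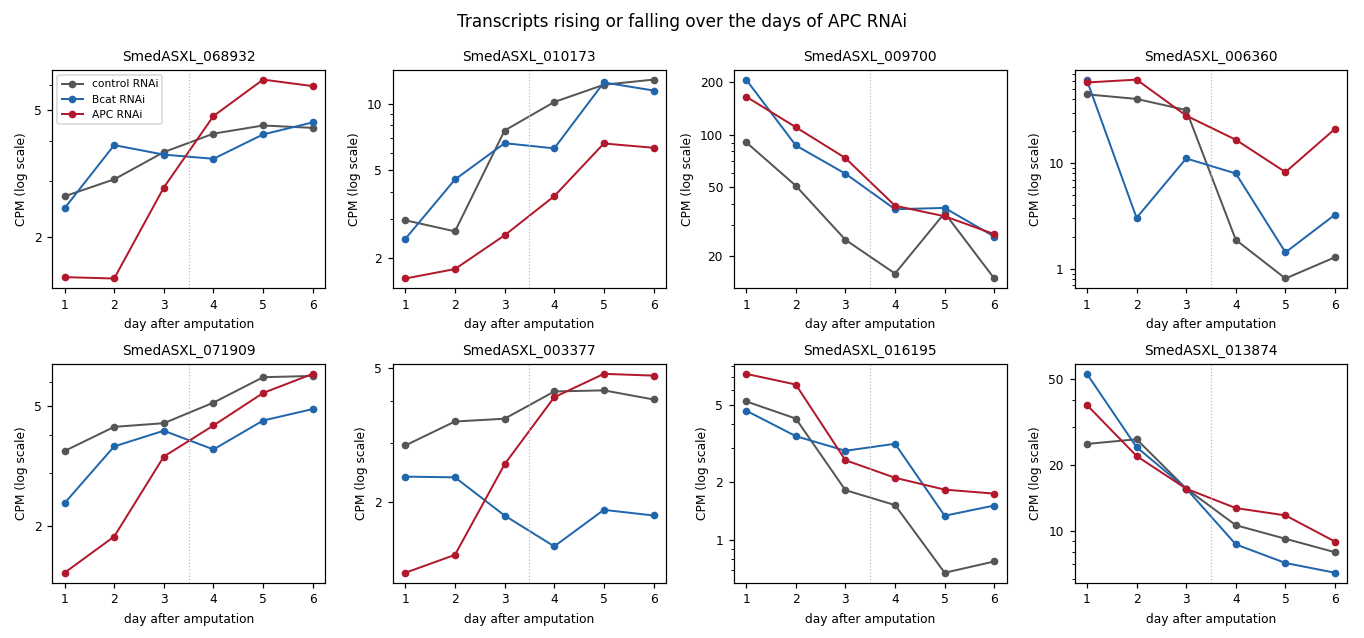
Scaled CPM (log axis) by day after amputation for the 4 transcripts named late against early (top row) and the 4 named for their slope (bottom row). Each point is 1 pooled library, red for APC RNAi, grey for control RNAi and blue for Bcat RNAi, and the dotted line separates early from late days. In APC RNAi SmedASXL_068932 goes from 1.5 to 5.97 CPM and SmedASXL_009700 from 165.5 to 26.7 CPM.

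A line through the 6 days used their order, and called more transcripts. The slope was upward for 201, or 0.678% of those tested, and downward for 241, or 0.813% (edgeR quasi-likelihood test, adjusted p under 0.05). Median slopes were 0.16 log2 units per day for the risers and -0.17 for the fallers. Of the 45 transcripts higher late against early, 43 were among the risers (21.4% of the 201), and all 26 lower ones were among the fallers (10.8% of the 241), as 2 tests of the same libraries. At all 5 steps, 38 of the 201 risers went up and 46 of the 241 fallers went down. The share over all transcripts was not counted. A riser highest at day 5, as 124 were, could not go up at the last step.

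The share of higher calls depended on the scaling of the libraries. It was 45.5% with TMM factors, but 149 rose and 254 fell with RLE size factors, 407 rose and 232 fell with TMM factors of transcripts at or over 4 CPM, and 359 rose and 255 fell with loess offsets. DESeq2 gave 122 risers and 350 fallers. Of the 442 transcripts, between 336 and 399 were called again under these settings. Leaving out day 5 raised the number of calls to 2260, which held all 442. Without day 1 only 48 were called, 46 of them among the 442, and without day 2 there were 135, with 129 shared.

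**Figure D3:**
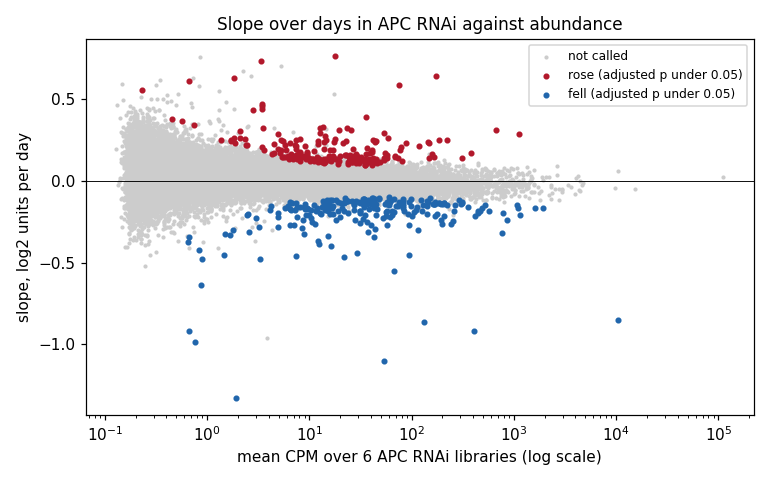
Slope over days in APC RNAi (log2 units per day) against mean scaled CPM (log axis) over the 6 libraries, 1 point per transcript tested. Red points rose and blue points fell past an adjusted p of 0.05. The 201 risers and 241 fallers lie mostly above 1 CPM, and the falling point of the highest abundance is SmedASXL_012104.

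The share of transcripts called rose with read abundance, which is not corrected for transcript length. It was 0.0945% below 1 CPM, 0.699% from 1 to 4 CPM, 2.86% from 4 to 16 CPM, 3.11% from 16 to 64 CPM and 3.84% above. Below 1 CPM, 5 rose and 7 fell of 12704 transcripts tested. From 4 to 16 CPM the counts were 79 and 60 of 4859, and from 16 to 64 CPM they were 77 and 86 of 5233. Above 64 CPM, 21 rose and 77 fell of 2549. In this top class the fallers outnumbered the risers, while the median slope of all its transcripts was -0.03 log2 units per day.

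The 4 transcripts named for their slope moved the same way at all 5 steps when scaled among the APC RNAi libraries alone. SmedASXL_071909 rose on every day, with 1.4, 1.85, 3.4, 4.31, 5.52 and 6.39 CPM, or 0.44 log2 units a day (SE 0.05, adjusted p = 0.000561, edgeR). At day 6 it had reached the level of control RNAi, 6.29 CPM, from well under it at day 1, when control stood at 3.55 CPM. SmedASXL_003377 went from 1.24 CPM at day 1 through 2.59 CPM at day 3 to 4.81 and 4.76 CPM at days 5 and 6 on the scale of all 18 libraries, with a slope of 0.43 (SE 0.06, adjusted p = 0.00231, edgeR). Bcat RNAi moved the other way in value, with 2.38 CPM on day 1, 1.83 CPM on day 6 and a slope of -0.08 that was not called (adjusted p = 0.425, edgeR). The difference of the late minus early changes of SmedASXL_003377 between APC and Bcat RNAi was 1.69 on the log2 scale (adjusted p = 0.0896, edgeR), and with day as a block 1.72 (adjusted p = 0.00739).

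SmedASXL_016195 fell over days 1 to 6, with 7.27, 6.4, 2.59, 2.1, 1.83 and 1.74 CPM, and its largest drop lay between day 2 and day 3. The slope was -0.48 (SE 0.06, adjusted p = 0.00147, edgeR). In control RNAi the slope was steeper in value, -0.65, and in Bcat RNAi -0.33. SmedASXL_013874 began at 37.9 CPM and ended at 8.92 CPM, a slope of -0.40 (SE 0.04, adjusted p = 0.000232, edgeR), beside -0.39 in control and -0.62 in Bcat RNAi. All 4 slopes stayed past the threshold in each of 13 alternative settings, leaving out each day included.

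The timing of the changes is given as a description. By day 3 the median riser had made 39.0% of its change from day 1 to day 6, and the median faller 63.8%. By day 4 the shares were 64.2% and 71.6%. The groups called late against early stood closer together at day 3, at 29.2% for the 45 higher and 40.4% for the 26 lower transcripts, and the difference between risers and fallers was not tested. The largest upward step of a riser lay between day 4 and day 5 in 103 of 201 (51.2%), which is close to the 51.5% among all 6657 transcripts of at least 2 CPM with a positive slope. The largest downward step of a faller lay between day 2 and day 3 in 110 of 241 (45.6%), against 21.3% of all 7931 such transcripts with a negative slope. Highest levels were reached at day 5 by 124 of the 201 risers (all positive slopes, 65.0%), and lowest levels at day 6 by 168 of the 241 fallers (all negative slopes, 49.4%). Day 5 is among the libraries that stood apart, and its part in these shares was not tested.

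Group medians followed each day. Against day 1, the median riser stood at log2 values of 0.16, 0.28, 0.48, 0.83 and 0.71 on days 2 to 6. The median faller stood at -0.18, -0.51, -0.59, -0.66 and -0.82. Together the risers held 0.49% of the reads at day 1 and 1.06% at day 6. Without those that stood apart on days 1 and 2, the other 197 risers held 0.48% and 1.02%. The fallers held 8.47% at day 1 and 2.26% at day 6, but 4 of them belonged to the 7 transcripts that stood apart at day 1. Without these, the other 237 held 3.30% at day 1 and 2.04% at day 6.

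In single steps from one day to the next, with 1 library a side and no test, few transcripts of at least 2 CPM moved 2-fold or more. From day 1 to day 2 there were 18 (0.123% of 14588), 17 of them down. From day 2 to day 3 there were 57 (0.391%), 50 of them up, and from day 3 to day 4 only 6 (0.0411%), all down. From day 4 to day 5 there were 64 (0.439%), 59 of them down, and from day 5 to day 6 there were 73 (0.5%), 71 of them up. The 2 last steps run in and out of the day 5 library: directly from day 4 to day 6, 2 transcripts went up and 1 down. Among the same 14588 transcripts, chosen by their mean in APC RNAi, control RNAi had 13 to 32 such transcripts per step and Bcat RNAi 24 to 91.

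Courses with a turn in the middle were tested with a quadratic term. It passed the threshold in 11 transcripts (0.0371%, edgeR, adjusted p under 0.05), all with a dip, and 10 of these had their highest level at day 1. Only SmedASXL_040341 averaged 2 CPM or more, a mean it reached only through day 1. It lay at 21.9 CPM at day 1 and between 0.236 and 1.38 CPM afterwards. It is one of the 7 transcripts that stood apart at day 1, and its call was lost without that library. It falls outside the rule for named transcripts and was chosen after its values were seen. The count and its direction depended on the days used: without day 6 there were 424 calls, 212 each way, without day 5 120, and without day 1 38, of which 21 had a dip.

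The transcripts that changed over the days of APC RNAi were looked up in the other treatments, each fitted on its own 6 libraries. Of the 201 risers, 139 (69.2%) also had a rising slope in control RNAi, where 5.44% of all transcripts tested did, and 11 had a falling one. Of the 241 fallers, 213 (88.4%) fell in control as well, where 9.52% of all did. The shared transcripts made up 6.95% of the 1999 risers and 6.08% of the 3502 fallers of control RNAi. In Bcat RNAi 144 of the 200 risers tested there (72%) rose, against 3.95% of all, and 154 of the 241 fallers (63.9%) fell, against 2.32%. These were 10.3% of the 1400 risers and 18.8% of the 821 fallers of Bcat RNAi. The shares moved with the APC RNAi days used. With day 5 left out they were lower: in control 499 of 948 risers (52.6%) and 1092 of 1309 fallers (83.4%) were called the same way. In Bcat RNAi these were 433 of 944 (45.9%) and 508 of 1308 (38.8%). Without day 1, far fewer were called: 22 of 29 (75.9%) and 19 of 19 (100%) matched in control. The Bcat RNAi matches were 22 of 28 (78.6%) and 17 of 19 (89.5%). Without day 2, control matched 41 of 49 (83.7%) and 72 of 86 (83.7%). Bcat RNAi then matched 38 of 49 (77.6%) and 56 of 86 (65.1%). The 3 treatments share no library, but the days are the same, and abundant transcripts were called more often.

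The same groups can be followed in the other treatments. On days 2 to 6 the 201 risers stood at medians of 0.07, 0.25, 0.37, 0.52 and 0.53 in control RNAi and of 0.42, 0.55, 0.55, 0.82 and 0.84 in Bcat RNAi, as log2 values against day 1. Relative to its own day 1, Bcat RNAi was ahead of the others at day 2. The APC RNAi median was level with that of Bcat RNAi at day 5 (0.83 and 0.82) and below it at day 6 (0.71 and 0.84). For the 241 fallers, control RNAi stood at -0.22, -0.59, -0.61, -0.76 and -0.85 over the same days, and Bcat RNAi at -0.27, -0.41, -0.49, -0.46 and -0.71. Since the members were chosen on the APC RNAi libraries, these medians are a description, and the differences between treatments were not tested on them.

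**Figure D4:**
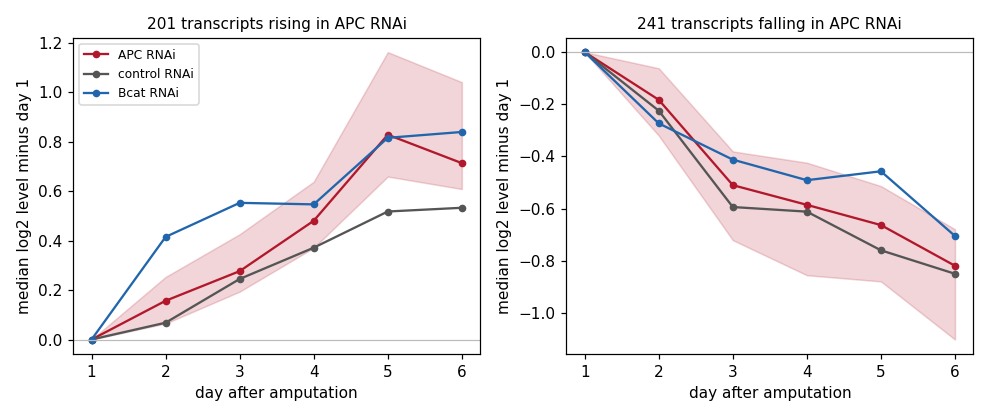
Median log2 level relative to day 1 of the 201 transcripts that rose (left) and the 241 that fell (right) in APC RNAi, by day after amputation, in APC RNAi (red), control RNAi (grey) and Bcat RNAi (blue). The shaded band is the range from the lower to the upper quartile in APC RNAi. At day 5 the risers stand at 0.83 under APC RNAi but at 0.52 under control RNAi, while the fallers reach -0.82 and -0.85 at day 6.

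The transcripts called late against early had fewer counterparts. Of the 45 higher ones 21 (46.7%) were called higher late against early in control RNAi too, where 0.799% of all were, and these are 7.14% of the 294 called there. Of the 26 lower ones 21 (80.8%) were called lower in control, where 0.895% of all were, 6.38% of the 329 there. In Bcat RNAi this test called 0.0113% higher and 0.0141% lower, 9 transcripts in all, of which 1 was among the 45 and none among the 26. By value, 44 of the 45 and 24 of the 26 moved in the same direction in Bcat RNAi, and 44 and 26 in control RNAi. The share of all transcripts moving each way was not counted. Their median late minus early log2 change was 0.05 in Bcat RNAi and 0.06 in control RNAi.

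The authors' deposited table lists transcripts that differ between APC and Bcat RNAi over all time points. Of the 241 fallers, 32% are listed there as higher in APC RNAi and 4.98% as higher in Bcat RNAi. Of the 201 risers, 15.9% are listed as higher in APC RNAi and 26.9% as higher in Bcat RNAi. Over all tested transcripts of at least 2 CPM the authors' deposited table lists 39.1% and 14.5%, and over all tested transcripts 21% and 19.7%. The fallers' 32% thus lies between these 2 shares. That table and the slopes rest on the same APC RNAi libraries, so the shares are a description.

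Whether the late minus early change itself differed between treatments was tested over 12 libraries. Against control RNAi 1 transcript was called (0.00263% of 38044, edgeR, adjusted p under 0.05), and 1883 had an unadjusted p under 0.05. The labels pair the libraries by day, and with day as a block 87 were called (0.229%), 73 with a signed change above that of control and 14 with one below it. Of the 73, 47 went up by value in APC RNAi and 66 went down in control. With days 1, 2 or 5 of both treatments left out in turn, the block fit called 63, 48 and 40.

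The 1 transcript was SmedASXL_006360, the faller described above, and it is named here because it was the only call. In control RNAi its levels on days 1 to 6 were 44.7, 40.5, 31.7, 1.88, 0.813 and 1.29 CPM, a drop between day 3 and day 4. APC RNAi had 16.6, 8.23 and 21.1 CPM on days 4 to 6, so that all 3 late libraries lay above those of control, while on days 1 to 3 the 2 treatments overlapped. The difference of the changes was 3.17 on the log2 scale (SE 0.43, adjusted p = 0.0112, edgeR), and with day as a block 3.21 (adjusted p = 1.31e-08). Without the day 5 or the day 6 control library the adjusted p was 0.0815 and 0.0689, and then no transcript was called by edgeR, with 2057 and 1213 at an unadjusted p under 0.05.

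Transcripts called only with day as a block are shown by one each way. Under APC RNAi SmedASXL_066371 had 11.8 CPM on day 1 and 4.03 CPM on day 6. Under control RNAi the level was 3.9 CPM on day 1, 0.461 CPM on day 4 and 0.0184 CPM on day 6. The gap thus widened as a ratio, while in CPM it was smaller on day 6 than on day 1. The day 6 control level is near the floor, so the ratio there is uncertain. The difference was 2.83 (SE 0.35, adjusted p = 0.000273, edgeR with day as a block). SmedASXL_009894 stayed between 21.3 and 39.0 CPM in APC RNAi, while control RNAi had 53.5, 30.1, 37.5, 49.2, 61.9 and 66.3 CPM on days 1 to 6 with no slope called (adjusted p = 0.0857, edgeR), a difference of -0.81 (SE 0.13, adjusted p = 0.00465, edgeR with day as a block). The next one by size, SmedASXL_077889, is one of the 10 transcripts that stood apart on days 1 and 2.

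Against Bcat RNAi, the opposite knockdown in the pathway, 6 transcripts were called (0.0162% of 37080, edgeR, adjusted p under 0.05), 3 with a signed change above that of Bcat RNAi and 3 with one below it. With day as a block 97 were called (0.262%), 75 and 22. Leaving out days 1, 2 or 5 of both treatments gave 159, 57 and 109 under the block.

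SmedASXL_068695 fell slowly in APC RNAi, with 87.7, 78.9, 58.1, 51.6, 49.8 and 42.8 CPM on days 1 to 6. In Bcat RNAi it went from 46.1, 33.7 and 18.5 CPM to 2.83, 0.329 and 0.168 CPM. The treatments were apart on every day. As a ratio the gap grew at each step from day 1 on, while as a difference in CPM it changed little. The difference of the changes was 4.29 on the log2 scale (SE 0.60, adjusted p = 0.00805, edgeR). Its adjusted p reached 0.204 with DESeq2, and the call was lost in 4 of 22 alternatives. Control RNAi stood between them at day 6, at 21.2 CPM. SmedASXL_081108 lay between 10.7 and 15.3 CPM over the 6 days of APC RNAi, with no slope called, while the Bcat RNAi level dropped to 1.23 CPM by day 6 after 7.13 CPM on day 1. The difference was 1.67 (SE 0.28, adjusted p = 0.0377, edgeR).

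SmedASXL_011883 moved in opposite directions in APC and Bcat RNAi. In control RNAi it had a falling slope too, -0.15 (adjusted p = 0.0458, edgeR). The late minus early changes of APC and control RNAi differed by -1.12 (adjusted p = 0.902, edgeR), and with day as a block by -1.16 (adjusted p = 0.000283). In APC RNAi it had 25.5, 14.8, 18.5, 6.44, 9.82 and 6.37 CPM on days 1 to 6, lower on all late days than on any early day. In Bcat RNAi the levels were 85.9, 125.5, 142.5, 242.3, 168.5 and 269.5 CPM, higher on all late days than on any early day. The difference of the changes was -2.34 (SE 0.30, adjusted p = 0.00347, edgeR), and the slope was called in each direction, at -0.38 in APC RNAi (adjusted p = 0.00648) and 0.31 in Bcat RNAi (adjusted p = 0.00346). SmedASXL_011884 had a like pair of courses, from 15.3 to 4.95 CPM in APC RNAi and from 62.1 to 200.6 CPM in Bcat RNAi, with a difference of -2.23 (SE 0.29, adjusted p = 0.00347, edgeR). Its control RNAi slope was also falling, -0.18 (adjusted p = 0.0233, edgeR). The other transcript called below Bcat RNAi carries the identifier just before these, with a difference of -1.54 (adjusted p = 0.0377, edgeR). It went from 52.6 to 171.7 CPM in Bcat RNAi and from 22.4 to 14.6 CPM in APC RNAi. The sources used here do not say how reads fitting several similar transcripts were placed. All 3 calls below Bcat RNAi are therefore uncertain as separate transcripts.

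**Figure D5:**
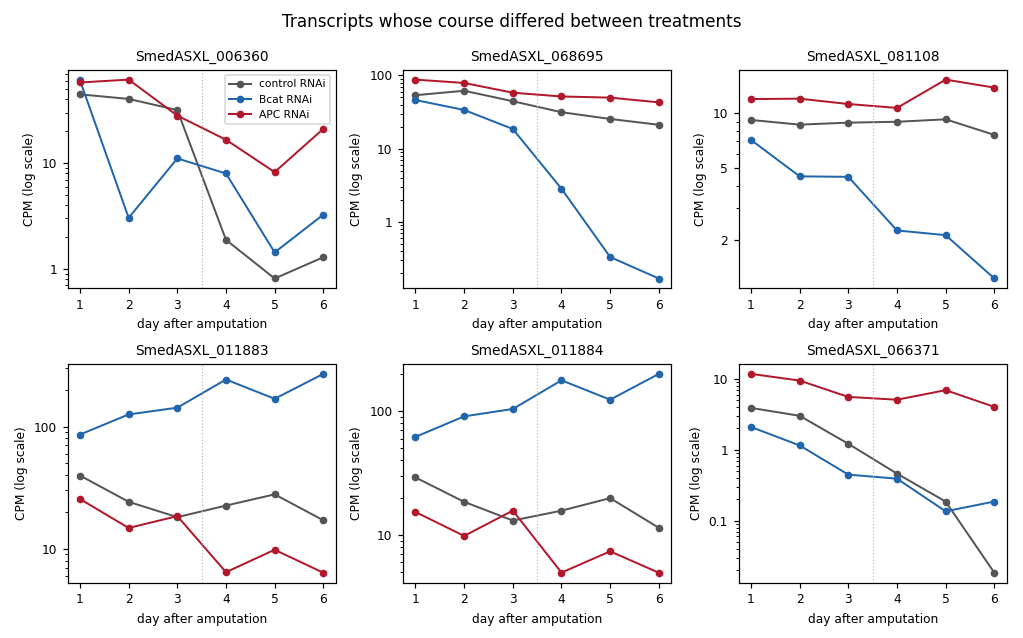
Scaled CPM (log axis) by day after amputation for SmedASXL_006360, 4 transcripts whose late minus early change differed between APC and Bcat RNAi, and SmedASXL_066371. Each point is 1 pooled library, red for APC RNAi, grey for control RNAi and blue for Bcat RNAi. In control RNAi SmedASXL_006360 drops to 1.88 CPM at day 4, and in Bcat RNAi SmedASXL_068695 drops to 0.168 CPM at day 6 while APC RNAi stays at 42.8 CPM.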

How the data were processed

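The deposited values are raw counts of reads per transcript, not normalized. Tools named are Bowtie2 2.2.4, bcl2fastq 1.8.3 and DESeq2, per the submitters' processing notes, and settings, strand use and the placing of reads that fit several transcripts are not given in the sources used here. Rows of total and unaligned reads were left out. The authors also deposited, from DESeq2, a log2 fold change and an adjusted p-value for each transcript listed as different between APC and Bcat RNAi.

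Libraries were grouped by treatment and day in the labels. In R 4.3.3, edgeR 4.0.16 (filterByExpr, TMM factors, glmQLFit and glmQLFTest) fitted late against early, day as a number and a quadratic term on the 6 APC RNAi libraries, and the difference of late minus early changes on 12 libraries. The filter left out 53317 transcripts with 0.291% of the counts. Benjamini-Hochberg adjustment covered all transcripts tested in a fit (threshold 0.05). Day levels are CPM with TMM factors over all 18 libraries, and steps are differences of log2 CPM (prior count 2). Alternatives were other scalings, filters, DESeq2 1.42.0, fits without each library, and day as a block. Same-day libraries deviated together, with correlations of 0.27 to 0.547 between APC and control RNAi and 0.226 to 0.475 between APC and Bcat RNAi, and the labels give the shared day. No 2 of the APC RNAi libraries agreed within sampling noise: the smallest chi-square over its degrees of freedom in 15 pairs was 5.04. The model steps were tested on simulated data.

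Transcripts named are at most 2 each way per comparison, those with the largest change past the threshold and a mean of at least 2 CPM, with no overlap of sides for late against early, the same direction at all 5 steps for slopes, and a day 3 or 4 extreme for the quadratic term, which no called transcript met. Members, rules and groups were chosen with earlier results of these data known. Lists of named genes were not used, since no names are paired with the identifiers.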

Additional observations from a re-analysis of the deposited data

Results flagged for a closer look

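In 2 cases a library value lay far from those of the other APC RNAi libraries by Dixon's gap test, of 14 tested. Chance gives about 1 in 20 for a measure chosen beforehand, which does not apply here, since both measures were picked after their values were seen. At day 5 SmedASXL_078927 took 13.7% of the reads, with 10.8% the next highest. At day 1 the 7 transcripts that lay above all other libraries took 5.18%, with 0.243% the next highest, and these were picked for being high at day 1.

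By a test of the difference itself, late minus early changes differed for 1 transcript against control and 6 against Bcat RNAi (edgeR quasi-likelihood test, adjusted p under 0.05), of which 5 are named. Against control RNAi the log2 difference of SmedASXL_006360 was 3.17. Against Bcat RNAi it was 4.29 for SmedASXL_068695, 1.67 for SmedASXL_081108, -2.34 for SmedASXL_011883 and -2.23 for SmedASXL_011884. The call of SmedASXL_081108 was lost in 8 of 22 alternatives, with adjusted p up to 0.212, that of SmedASXL_006360 in 5 of 22, with adjusted p up to 0.518, and that of SmedASXL_068695 in 4 of 22, with adjusted p up to 0.204. SmedASXL_011883 and SmedASXL_011884 lost theirs in 1 and 2 of 22, with adjusted p up to 0.0757.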

How the results depend on the processing

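Late against early, 71 transcripts were called, with 29 using TMM factors of transcripts at or over 4 CPM, 41 with loess offsets, 493 with no filter, 0 with the stricter filter, 35 with all 18 libraries in the fit and 276 for days 5 and 6 against days 1 and 2. Without single libraries the count ran from 11 to 309. For the slope, 442 became 799 with no filter, 689 with the stricter filter and 790 with all 18 libraries, and 48 to 2260 without single libraries. The 11 curvature calls became 0 with TMM factors at 4 CPM (373 at an unadjusted p under 0.05, edgeR), 6 with loess offsets, 175 with no filter and 0 with the stricter filter (179), and 21 to 424 without single libraries. Without single libraries the curvature of SmedASXL_040341 ran from -0.0038 (without day 1) to 0.98.

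For the course against control, 1 call became 0 with TMM factors at 4 CPM, 0 with loess offsets and 0 with the stricter filter (1805, 2038 and 1075 at an unadjusted p under 0.05, edgeR), 63 with no filter, 2 with DESeq2, 18 as a difference of slopes, and 0 to 63 without single libraries. With the replicate block it was 87, and 63, 48 and 40 without days 1, 2 and 5, which was chosen after seeing the data. For the course against Bcat RNAi, 6 calls became 2, 3, 1, 66, 11 and 19 under the same settings (TMM from 4 CPM, loess, stricter filter, no filter, DESeq2, slopes), and 3 to 58 without single libraries. The replicate block gave 97, and 159, 57 and 109 without days 1, 2 and 5.

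Steps of at least 2-fold numbered 10 from day 1 to 2, 31 from day 4 to 5 and 25 from day 5 to 6 among transcripts of at least 4 CPM. Of 228 alternative values of the 14 named results, 189 had the same direction and call, 38 lost the call and 1 reversed. With 4 residual degrees of freedom and 1 pool per day, the counts above set how firmly any number of calls can be read. The cause of these differences was not tested.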
